A study of Mus musculus with 3 samples.

Results

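The genes described here are 10 heat shock chaperones of the mouse ovary, chosen by name from the 24958 genes of a scRNA-seq table. *Hspa1a*, *Hspa1b*, *Hspb1*, *Hsph1* and *Dnajb1* encode chaperones of the cytosol whose transcription is induced by stress. *Hspa8* and *Hsp90aa1* encode cytosolic chaperones that unstressed cells also hold in large amounts, although *Hsp90aa1* is itself inducible by stress (called the cytosolic basal members here), *Hspd1* and *Hspe1* the chaperonin pair of the mitochondrial matrix, and *Hspa5* the HSP70 protein of the endoplasmic reticulum. Whole ovaries of Kunming mice were dissociated and run on the 10x Genomics platform, and the labels name 3 libraries, 1 at each of 0, 1 and 6 h after injection of human chorionic gonadotropin (hCG), the hormone that triggers ovulation. The study describes juvenile mice primed with pregnant mare serum gonadotropin (PMSG), and whether the mice at 1 and 6 h had been primed is not stated. The number of ovaries pooled per library is not stated either.

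The table pools the cells of the 3 libraries, and neither the labels nor the paper say which barcode ending (1, 2 or 3) belongs to which library. The labels name the libraries SAMPLES1 at 0 h, SAMPLES2 at 1 h and SAMPLES3 at 6 h, but do not say that the endings follow these names. The endings are therefore called barcode sets 1, 2 and 3, and no time point was given to any of them. With 1 library per time point there is no replicate, so no difference between sets was tested. Every interval in brackets is an exact 95% interval that covers counting error only. A difference between sets cannot be told apart from a difference between single animals, dissociations or libraries.

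Chaperones bind unfolded stretches of other proteins and help them fold, reach their compartment or be degraded. HSP70 proteins (*Hspa1a*, *Hspa1b*, *Hspa8*, *Hspa5*) do so in cycles of ATP hydrolysis that J-domain proteins such as that of *Dnajb1* start and that nucleotide exchange factors such as that of *Hsph1* reset. Protein damage frees the transcription factor HSF1, which binds heat shock elements and induces the stress-inducible genes within minutes. The endoplasmic reticulum answers through a different pathway, the unfolded protein response, and its target *Hspa5* carries endoplasmic reticulum stress elements. Enzymatic dissociation of a tissue is itself known to induce immediate early genes and heat shock genes, so levels of the stress-inducible members in dissociated cells need not be those of the intact ovary.

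The promoters of the members show which of these elements lie next to their start sites. Windows from 250 bases before to 50 bases after the start were taken from RefSeq on GRCm38.p6, and 8 of the 10 members had one, the exceptions being *Hspa8* and *Hsp90aa1*. Each window was searched for the heat shock element as GAANNTTC or TTCNNGAA, each of which is its own reverse complement, so that a match reads the same on both strands. The 8 members had 11 windows, of which 7, from 6 members, held at least 1 match, against 15.1% of all 32851 windows of the table. The members without a match were *Dnajb1*, although grouped here as stress-inducible, and *Hspa5*. The windows of *Hspd1* (1 of its 2) and *Hspe1* overlap and share the same matches, as do those of *Hsph1*, so the 7 windows are not separate sites. *Hspa1a* and *Hspa1b*, a pair of neighbouring copies on chromosome 17 whose gene bodies lie 9951 bases apart, are shown first because their promoters are nearly the same. The sequences are the 250 bases before each start, in capitals the element, which begins 104 bases before the start in both (chr17:34972157-34972406 and chr17:34959239-34959488, minus strand).
*Hspa1a*: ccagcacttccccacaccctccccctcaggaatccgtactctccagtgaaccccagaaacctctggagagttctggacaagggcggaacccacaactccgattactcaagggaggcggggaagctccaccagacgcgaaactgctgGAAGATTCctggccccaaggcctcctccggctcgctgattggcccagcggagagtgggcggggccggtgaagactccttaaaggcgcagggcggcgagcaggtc
*Hspa1b*: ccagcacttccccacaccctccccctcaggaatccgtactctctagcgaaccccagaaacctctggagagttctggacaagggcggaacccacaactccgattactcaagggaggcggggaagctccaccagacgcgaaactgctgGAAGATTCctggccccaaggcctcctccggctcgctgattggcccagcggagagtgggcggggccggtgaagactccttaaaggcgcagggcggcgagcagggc

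Over the 300 bases of the whole windows the copies were 98.7% identical and differed at 4 positions, counted from 1 at the 5′ end of the window with the *Hspa1a* base first: C44T, T47C, T249G and C276T. Short stretches of the other members with an element are given next, since their windows differ in the number and spacing of elements. The window of *Hspb1* held 2 separate matches (both in chr5:135887801-135887830, plus strand), and 1.96% of all windows held at least 2. Each of the *Hsph1* windows held 3, of which 1 lies before the start and is shown (chr5:149636351-149636380, minus strand, which overlaps an annotated exon of *Hsph1*), and the others lie after the start. The window of *Hspe1* held 3 overlapping matches in a run of 18 bases (chr1:55088053-55088082, plus strand), and 0.256% of all windows held at least 3.
*Hspb1*: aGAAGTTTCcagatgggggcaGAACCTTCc
*Hsph1*: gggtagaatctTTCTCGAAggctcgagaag
*Hspe1*: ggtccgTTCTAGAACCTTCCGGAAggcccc

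The run of 3 elements next to *Hspe1* lies between the starts of *Hspd1* and *Hspe1*, which are transcribed away from each other. It also falls within an exon of a longer *Hspd1* transcript. The starts are 108 bases apart for 1 GENCODE transcript of each gene, and these starts differ from those of the RefSeq windows. The window of *Hspa5* held the endoplasmic reticulum stress element, searched as CCAAT, any 9 bases and CCACG on both strands (chr2:34772020-34772048, plus strand, both parts in capitals), which was found in 0.119% of all windows. A match of letters is a description and no measure of binding.
*Hspa5*: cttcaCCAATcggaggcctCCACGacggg

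On the same build *Hspa1a* spans chr17:34969190-34972156 and *Hspa1b* chr17:34956436-34959238, both on the minus strand. *Hspb1* spans chr5:135887919-135889563 and *Hsph1* chr5:149614287-149636376, *Dnajb1* chr8:83608193-83612653, *Hspa8* chr9:40800984-40810087, *Hsp90aa1* chr12:110690605-110702728, *Hspd1* chr1:55077835-55088243, *Hspe1* chr1:55088132-55091307 and *Hspa5* chr2:34771970-34777547. Of these, *Hsph1*, *Hsp90aa1* and *Hspd1* lie on the minus strand and the others on the plus strand. Several members have processed copies elsewhere in the genome, and reads that fit more than 1 gene may be lost or assigned to a copy. Of the 31-base words in the last 500 bases of the transcript, 85.3% recurred in other annotated genes for *Hspa8*, 68.5% for *Hspe1* and 60.0% for *Hspb1*, so the levels of these genes are uncertain. The share was 0% for *Hspa1a* and 2.15% for *Hspa1b*, although 65.4% and 68.0% of the words of their whole transcripts recurred. Whether the libraries read the 3′ or the 5′ end is not stated.

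The 3 barcode sets held 10384, 9917 and 11475 cells, with a median of 6093, 6352 and 6524 UMIs per cell and 72906577 to 85756955 UMIs in total. Of the barcodes, 112 occurred in more than 1 set. Cells were placed in classes by fixed marker genes, and 77.1% were gated (82.3%, 84.4% and 66.1% in sets 1, 2 and 3), with 6082 cells close to the limit of the gate. The 7 classes with at least 50 cells in each set were granulosa cells (GCs, 8165 cells), theca cells (2232), steroidogenic cells without a *Cyp17a1* UMI (1539), stroma (10025), smooth muscle and pericytes (471), endothelium (1617) and myeloid cells (384). Genes kept out of the gate as a check went with the class names for most classes, with exceptions. *Star* and *Fdx1*, the check genes of theca cells, were not compared with the steroidogenic class without *Cyp17a1*. *Fbln1* was not highest in stroma in any set and *Mgp* was not in set 3. *Foxl2* was below another class in GCs of set 2 (0.984 against 1.68 UMIs per 10000), and *Fshr* was below the steroidogenic class in GCs of set 3 (0.169 against 0.306). *Cyp19a1* was at 2.63 and 5.63 in GCs of sets 1 and 2 but only 0.0950 in set 3, against 0.0581 in the next class. The gate held 2970, 3617 and 1578 GCs, against 4321, 4130 and 2871 when classes were assigned by cluster majority instead of by cell. Theca cells had the deepest profiles, with a median of 11773, 11204 and 10052 UMIs, and doublets were not called.

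The level of a gene is given throughout as its UMIs per 10000 UMIs of the cells of a class. Levels are compared between classes or sets for 1 gene or 1 sum of genes at a time. The pairs of neighbouring genes are also compared gene to gene. No free-RNA floor was measured, because no gated class is known to lack these chaperones. The members did not share 1 pattern over the ovary. The mitochondrial pair was highest in theca cells and *Hspa5* and *Hsp90aa1* in GCs. *Hspb1* was highest in endothelium or in smooth muscle and pericytes, and *Hspa1a* and *Hspa1b* in stroma in most sets.

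**Figure D1:**
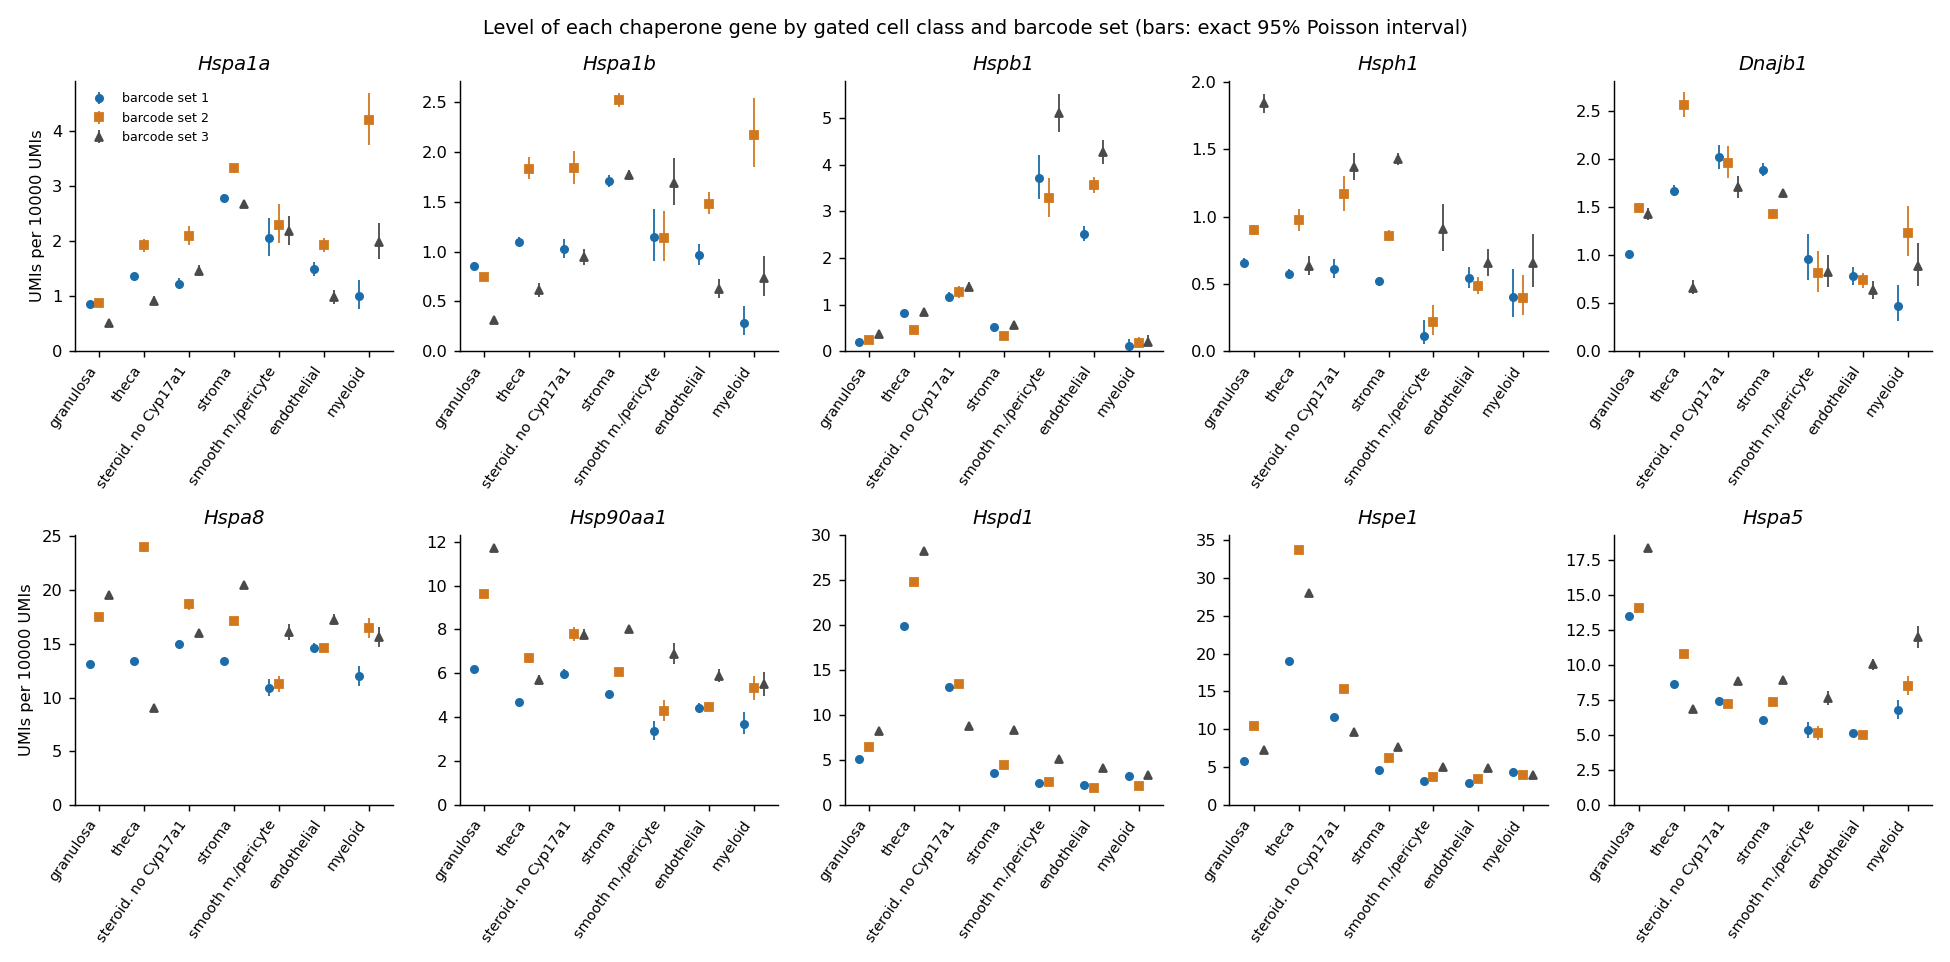
Level of each of the 10 members in UMIs per 10000 UMIs (vertical axes, from 0, with a scale of its own for each gene) in 7 gated cell classes, with 1 point for each of the 3 barcode sets and exact 95% Poisson intervals as bars. *Hspd1* and *Hspe1* stand out in theca cells, at 19.9 to 28.2 and 19.0 to 33.7, and *Hspb1* in endothelium and smooth muscle, at 2.52 to 5.10.

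*Hspa1a* and *Hspa1b* encode nearly identical HSP70 proteins and are the classical heat-induced members of the family. The *Hspa1a* level was 2.78, 3.32 and 2.68 in stroma of sets 1, 2 and 3, and 0.864, 0.869 and 0.519 in GCs. Stroma thus stood 2.45-fold [2.36, 2.54], 2.60-fold [2.51, 2.69] and 2.94-fold [2.81, 3.08] above the other gated cells. GCs stood at 0.453, 0.314 and 0.237 of the other gated cells. Stroma was the highest class in sets 1 and 3, whereas in set 2 the 137 myeloid cells were highest, at 4.20 against 1.00 and 1.98 in the other sets. *Hspa1b* followed with 1.71, 2.52 and 1.77 in stroma and 0.860, 0.747 and 0.314 in GCs, and its stroma ratios were 1.78, 2.36 and 3.05. Several classes could not be separated by counting error. For *Hspa1a* in set 1 these were endothelium and theca cells, at 1.49 and 1.37, and, each from the next, the steroidogenic class, myeloid cells and GCs, from 1.22 down to 0.864. In set 2 they were, each from the next only, smooth muscle, the steroidogenic class, endothelium and theca cells, from 2.30 down to 1.92.

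*Hspb1* encodes the small heat shock protein HSP25, which holds unfolded proteins in a foldable state and binds actin. Its level was 3.72, 3.28 and 5.10 in smooth muscle and pericytes and 2.52, 3.56 and 4.26 in endothelium, against 0.203, 0.232 and 0.376 in GCs and 0.123, 0.178 and 0.208 in myeloid cells. Endothelium and the smooth muscle and pericyte class lay above every other class in each set. In set 2 they did not differ from each other beyond counting error. The ratio to the other gated cells was 5.74, 5.50 and 6.46 in smooth muscle and 4.39, 9.08 and 5.96 in endothelium. With every cell cut down at random to 3000 UMIs, which left out 3042 shallower cells of the table, 51.6% of endothelial cells, 42.0% of smooth muscle cells, 5.81% of GCs and 3.40% of myeloid cells held an *Hspb1* UMI. Without thinning these shares were 62.3%, 48.6%, 12.2% and 5.21%. When classes were assigned by cluster majority instead of by cell, the smooth muscle ratio was 2.60 to 3.30 over the sets.

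*Hsph1* encodes the HSP110 exchange factor and *Dnajb1* the J-domain partner of HSP70. The order of the classes for these genes changed between sets. *Hsph1* was at 0.658, 0.900 and 1.84 in GCs, 0.518, 0.856 and 1.43 in stroma, and 0.574, 0.973 and 0.635 in theca cells. The highest class was GCs in set 1, not separated from the steroidogenic class by counting error, and in set 3, and the steroidogenic class without *Cyp17a1* in set 2, at 1.17. *Dnajb1* was at 1.67, 2.57 and 0.665 in theca cells, 1.89, 1.43 and 1.65 in stroma, and 1.02, 1.498 and 1.43 in GCs. The steroidogenic class without *Cyp17a1* was highest in sets 1 and 3, at 2.02 and 1.71, not separated from stroma in either. Theca cells were highest in set 2 and next to lowest in set 3.

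*Hspa8* encodes the constitutive HSP70 protein and had the narrowest range over classes of all members in sets 1 and 2. Its highest class exceeded its lowest by 1.37-fold, 2.13-fold and 2.28-fold in sets 1, 2 and 3. The level was 13.1, 17.5 and 19.5 in GCs, 13.4, 17.1 and 20.5 in stroma, and 13.4, 24.0 and 8.99 in theca cells, so that theca cells were the highest class in set 2 and the lowest in set 3. *Hsp90aa1* encodes the stress-inducible form of cytosolic HSP90, grouped here by its high level, which keeps steroid receptors and kinases in a state that can be activated. GCs were its highest class in every set, at 6.18, 9.62 and 11.7, which was 1.25, 1.59 and 1.54 times the level of the other gated cells. In set 1 they were not separated from the steroidogenic class without *Cyp17a1*, which they exceeded by 1.03-fold [0.993, 1.08]. Its lowest levels were 3.37 and 4.30 in smooth muscle of sets 1 and 2 and 5.50 in myeloid cells of set 3, none of them separated from the next class.

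*Hspd1* encodes HSP60 and *Hspe1* HSP10, which close around proteins imported into mitochondria. *Hspd1* was at 19.9, 24.8 and 28.2 in theca cells and 13.1, 13.4 and 8.74 in steroidogenic cells without *Cyp17a1*. It was at 5.13, 6.46 and 8.17 in GCs, and 2.22, 1.91 and 4.05 in endothelium. Theca cells were 3.95-fold [3.88, 4.01], 4.44-fold [4.35, 4.53] and 3.55-fold [3.48, 3.61] above the other gated cells, and 8.97-fold, 13.0-fold and 8.47-fold above the lowest class. *Hspe1* had the same highest class, at 19.0, 33.7 and 28.0 in theca cells and 5.76, 10.5 and 7.23 in GCs, or 3.35-fold, 3.98-fold and 3.74-fold above the other gated cells. The theca ratios of both genes stayed between 3.17 and 4.94 in each set under the gates and cell selections tried. Theca mitochondria carry the first step of steroid synthesis, and *Cyp11a1*, the gene of that step, is among the gate markers.

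*Hspa5* encodes BiP, the HSP70 protein that folds secreted and membrane proteins. Its level was 13.5, 14.1 and 18.4 in GCs, which lay above every other class in each set. Theca cells were at 8.67, 10.8 and 6.82 and stroma at 6.07, 7.32 and 8.93. GCs exceeded the other gated cells by 1.89-fold [1.86, 1.92], 1.87-fold and 2.10-fold [2.07, 2.13]. GCs thus had the highest level of the endoplasmic reticulum member in each set and the lowest of *Hspa1a*, in set 1 not separated from myeloid cells (1.16 [0.876, 1.51] between them).

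Counted against the other gated cells with a limit of 1.5-fold in every set, 1 of the 10 members was higher in GCs (*Hspa5*) and 3 were lower (*Hspa1a*, *Hspa1b* and *Hspb1*). Of the 5876 genes with a level of at least 0.2 in either group in each set, 8.27% were higher and 10.2% were lower by the same limit. All 10 members passed this minimum, here and in the comparisons of sets. *Hspa1b* lay close to the limit in set 1, at 0.660, and was no longer counted with means of the deposited log values, without the 1% of cells highest in the members or with classes by cluster majority, which left 2 lower members. The number of members is too small to set against the background.

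The levels of the members over all cells differed between barcode sets by less than those between classes. Within a class this did not always hold. *Hspa8* in theca cells ran from 24.0 in set 2 to 8.99 in set 3, and the classes of set 3 from 20.5 to 8.99. Over all cells, *Hsph1* was at 0.590, 0.883 and 1.40 in sets 1, 2 and 3, *Hsp90aa1* at 5.39, 7.90 and 8.54, and *Hspa8* at 13.5, 17.8 and 17.8. These genes were lowest in set 1, and *Hsph1* was higher again in set 3 than in set 2. *Hspa1a* was at 1.58, 1.95 and 1.64, *Hspa1b* at 1.20, 1.56 and 1.06, and *Hspe1* at 8.66, 10.6 and 8.17, each highest in set 2. *Hspb1* was at 0.693, 0.754 and 0.968, *Dnajb1* at 1.44, 1.61 and 1.54, *Hspd1* at 8.40, 7.21 and 8.25, and *Hspa5* at 9.10, 10.3 and 10.9. The makeup of the sets also differed, with 2970, 3617 and 1578 GCs and 1299, 473 and 460 theca cells. Its part in these ratios was not tested over all cells. *Hspd1* was at 19.9 and 28.2 in theca cells of sets 1 and 3, 5.13 and 8.17 in GCs and 3.50 and 8.32 in stroma. Only the steroidogenic class was lower in *Hspd1* in set 3 than in set 1, at 8.74 against 13.1. *Hspe1* was at 19.0 and 28.0 in theca cells, and lower in set 3 only in the steroidogenic class and myeloid cells.

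In set 2 against set 1 over all cells, no member passed 1.5-fold in either direction, against 7.44% of 6819 genes higher and 16.9% lower. *Hsph1* lay just under the limit and *Hsp90aa1* at 1.47, and the median log2 ratio of the members was 0.30 against -0.23 over all genes. In set 3 against set 1, 2 members were higher and 0 lower, against 12.3% and 16.9% of 6968 genes. These were *Hsph1*, at 2.38-fold [2.30, 2.46], and *Hsp90aa1*, at 1.59-fold [1.57, 1.60]. The median log2 ratio of the members was 0.17 against -0.04. In set 3 against set 2, *Hsph1* was 1.59-fold [1.54, 1.64] higher and 0 members were lower, against 23.9% and 13.3% of 6697 genes, with medians of 0.04 and 0.17. The members past the limit over all cells thus numbered 0 to 2 of 10 in each comparison.

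Within GCs, the cells in which the study's questions about FSH lie, more members passed the limit. In set 2 against set 1, *Hspe1* was 1.82-fold [1.78, 1.85] and *Hsp90aa1* 1.56-fold [1.53, 1.59] higher, 2 of 10 members against 9.25% of 6700 genes. No member was lower, against 34.4%, and the median log2 ratio was 0.37 for the members and -0.39 for all genes. Set 3 against set 1 divided the members. *Hsph1* was 2.80-fold [2.62, 2.98], *Hsp90aa1* 1.89-fold [1.85, 1.94], *Hspb1* 1.85-fold [1.63, 2.10] and *Hspd1* 1.59-fold [1.55, 1.64] higher, 4 of 10 against 10.3% of 6868 genes. *Hspa1a* was at 0.601 [0.552, 0.655] and *Hspa1b* at 0.365 [0.329, 0.405] of set 1, 2 of 10 against 16.9%, and the medians were 0.53 and -0.06. In set 3 against set 2, *Hsph1* was 2.04-fold [1.93, 2.16] and *Hspb1* 1.62-fold [1.44, 1.82] higher, against 33.2% of 6557 genes. *Hspa1a*, at 0.598 [0.550, 0.650], and *Hspa1b*, at 0.421 [0.379, 0.467], were lower, against 13.5%, with medians of 0.22 and 0.30. GCs of set 3 thus combined the lowest levels of the *Hspa1a* and *Hspa1b* pair with the highest of *Hsph1*, a gene of the same stress-inducible group. In set 3 against set 1, *Hspb1* was not counted as higher with means of the deposited log values or the wider gate margin, and *Hspd1* was not when classes were assigned by cluster majority, where *Dnajb1* took its place. With that assignment only 1 member was lower in each of the comparisons with set 3. It was *Hspe1*, and neither *Hspa1a* nor *Hspa1b*, in set 3 against set 2.

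**Figure D2:**
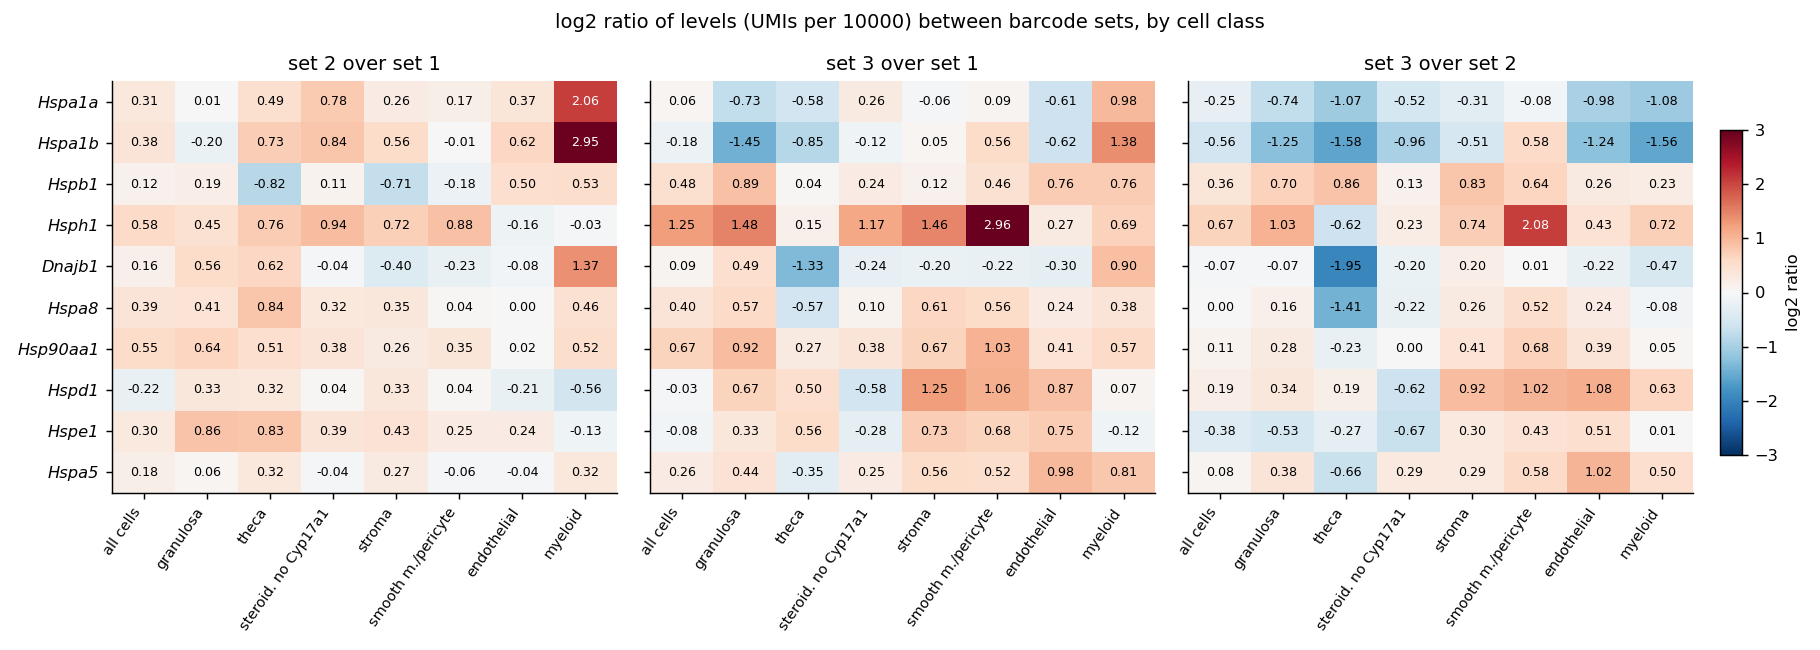
Log2 ratio of the level of each member (rows) between barcode sets 2 and 1, 3 and 1, and 3 and 2 (panels) for all cells and 7 classes (columns), as a number and as color, blue for lower and red for higher. In GCs the log2 ratio of set 3 to set 1 runs from -1.45 for *Hspa1b* to 1.48 for *Hsph1*.

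Other classes differed from GCs in the size or direction of some ratios. From set 2 to set 3 the theca level of *Dnajb1* was 0.259 times [0.229, 0.292] as high, that of *Hspa1b* 0.333, that of *Hspa8* 0.375 [0.363, 0.388], that of *Hspa1a* 0.476, that of *Hspa5* 0.632 and that of *Hsph1* 0.652. *Hspb1* was at 1.82 and *Hspd1* at 1.14. Of these, *Hspa8* (1.12 in GCs), *Hspa5* (1.30) and *Hsph1* (2.04) had the opposite direction in GCs, whereas the others had the same one, with *Dnajb1* in GCs at 0.955 [0.905, 1.01]. A theca cell needed a *Cyp17a1* UMI, and the steroidogenic cells without one held 242 cells in set 2 and 787 in set 3. In these, *Hspa8* was at 18.7 and 16.0 and *Dnajb1* at 1.97 and 1.71, so the gap between the sets was narrower there. By cluster majority this class held 760 and 2468 cells in the same sets, so its makeup depends on how classes are assigned. The theca level of the dissociation-response genes described further on was 117, 169 and 97.5 in the 3 sets, highest and lowest in the same sets as that of *Hspa8*, and its part in these ratios was not tested. Between sets 1 and 2 theca cells had ratios above 1.5 for *Hspa8* (1.79 [1.76, 1.83]), *Hspe1* (1.78), *Hsph1* (1.70), *Hspa1b* (1.66) and *Dnajb1* (1.53), and *Hspb1* was at 0.566. The summed level of all 10 members in theca cells was 71.1, 108 and 81.4 UMIs per 10000, against 47.3, 62.4 and 69.5 in GCs.

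Stroma of set 3 exceeded stroma of set 1 by 2.75-fold [2.56, 2.96] for *Hsph1*, 2.38-fold [2.31, 2.45] for *Hspd1*, 1.66-fold for *Hspe1*, 1.59-fold for *Hsp90aa1* and 1.53-fold for *Hspa8*. Endothelium of set 3 exceeded that of set 1 by 1.97-fold [1.86, 2.09] for *Hspa5*, 1.83-fold for *Hspd1*, 1.69-fold for *Hspb1* and 1.68-fold for *Hspe1*. *Hsph1* was higher in set 3 than in set 1 in smooth muscle as well, by 7.78-fold [3.81, 18.5], where set 1 held few UMIs. In myeloid cells of set 2 *Hspa1b* was 7.72-fold [4.61, 13.8], *Hspa1a* 4.18-fold [3.14, 5.65] and *Dnajb1* 2.59-fold [1.67, 4.14] above set 1. The myeloid cells of that set also had the highest dissociation-response level of any class, at 229 against 154 in set 1 and 173 in set 3.

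The balance within both pairs of neighbouring genes was followed as the share of 1 gene in the UMIs of both. *Hspa1a* gave 56.9%, 55.6% and 60.8% of the UMIs of *Hspa1a* and *Hspa1b* over all cells of sets 1, 2 and 3. In GCs its share was 50.1% [48.5, 51.7], 53.8% [52.3, 55.2] and 62.3% [59.4, 65.1], so the copies were even in set 1 and *Hspa1b* was the lower copy in set 3. In stroma it was 61.9%, 56.9% and 60.2%, and in myeloid cells 78.1%, 65.9% and 73.0%. *Hspd1* gave 49.2%, 40.4% and 50.2% of the UMIs of *Hspd1* and *Hspe1* over all cells. Its share was lowest in set 2 in each of the 7 classes, with 47.1%, 38.2% and 53.1% in GCs and 51.2%, 42.4% and 50.2% in theca cells. In smooth muscle, myeloid and steroidogenic cells the interval of set 2 overlapped that of 1 other set. As UMIs of *Hspd1* per UMI of *Hspe1*, GCs had 0.891 in set 1 and 0.618 in set 2, and the count of *Hspe1* is uncertain for its near copies.

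**Figure D3:**
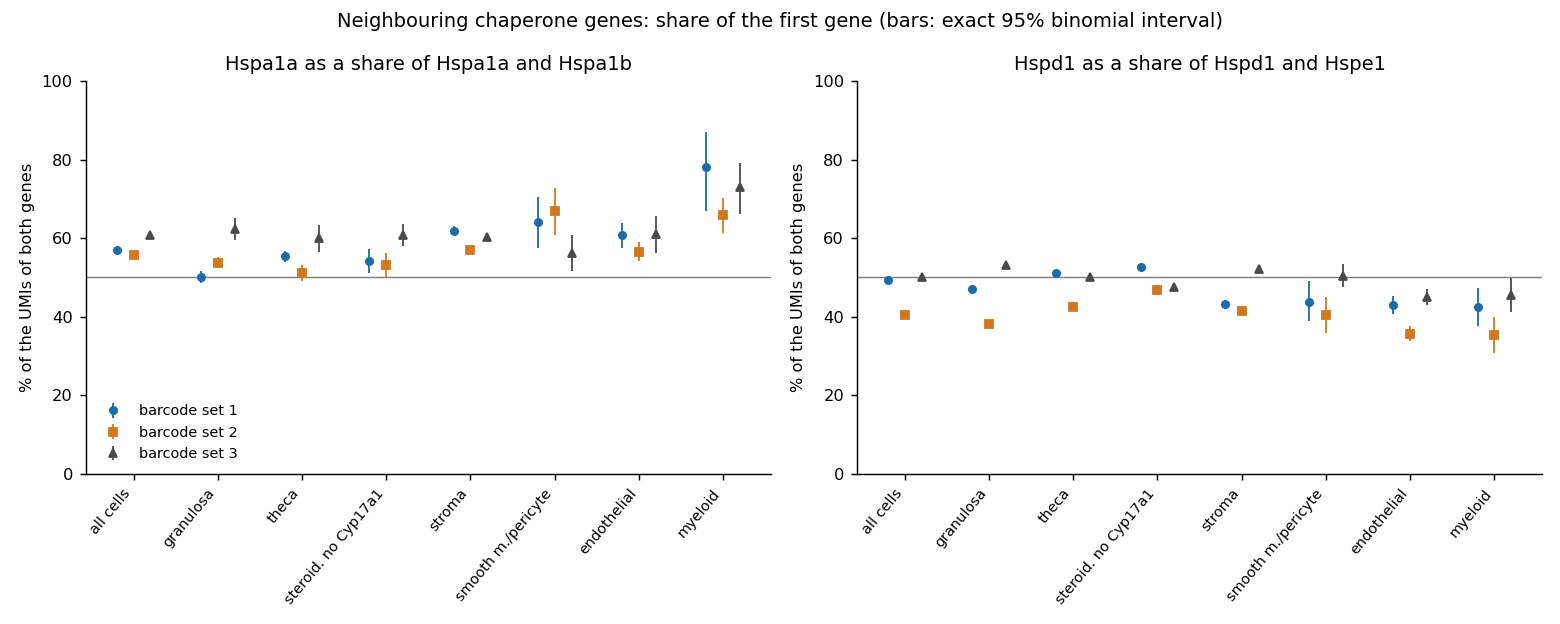
Share of *Hspa1a* in the UMIs of *Hspa1a* and *Hspa1b* (left) and of *Hspd1* in those of *Hspd1* and *Hspe1* (right), in percent, for all cells and 7 classes in 3 barcode sets, with exact 95% binomial intervals as bars and a line at 50%. The *Hspd1* share of set 2 is the lowest of the 3 sets in every class, at 38.2% in GCs and 42.4% in theca cells.

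The other genes of the chaperone pathways are given for 4 lists, as the number past 1.5-fold over all cells, to be read against the backgrounds above. Of 20 cytosolic co-chaperones and HSF1 genes, 7 were higher and 0 lower in set 3 than in set 1, and the median log2 ratio was 0.39. In set 2 against set 1 these numbers were 2 and 0, and in set 3 against set 2 they were 5 and 2. *Bag3*, an exchange factor that is a known HSF1 target, was at 0.270, 0.678 and 0.407, highest in set 2. *Stip1*, which hands clients from HSP70 to HSP90, was at 1.00, 0.912 and 2.09, highest in set 3. *Hspa4l*, an HSP110 gene, was at 0.215, 0.160 and 0.443, and *Hspb8*, a partner of *Bag3*, at 0.116, 0.0819 and 0.226. In GCs 6 of the 18 genes at or above the minimum level were higher in set 3 than in set 1 and 0 were lower, against 10.3% and 16.9% of all genes.

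Of 7 mitochondrial chaperones and proteases, 1 was higher and 0 lower in set 3 than in set 1, and 0 were higher and 1 lower in set 2 than in set 1. These numbers were 3 and 0 in set 3 against set 2. The gene higher in set 3 than in set 1 was *Hspa9*, the mitochondrial HSP70, at 1.56, 1.81 and 2.47. *Clpp*, a matrix protease, was at 0.821, 0.624 and 1.18, *Timm44*, which ties HSP70 to the import channel, at 0.741, 0.497 and 0.893, and *Dnaja3*, a matrix J-domain protein, at 0.219, 0.129 and 0.214. These 3 genes were lowest in set 2 over all cells, as was *Hspd1*, while *Hspe1* was highest there. By class, *Hspd1* was higher in set 2 than in set 1 in theca cells (24.8 against 19.9), GCs (6.46 against 5.13) and stroma (4.39 against 3.50). It was lower in endothelium (1.91 against 2.22) and myeloid cells (2.15 against 3.17). Steroidogenic cells without *Cyp17a1* (13.4 against 13.1) and smooth muscle (2.50 against 2.42) differed little.

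Of 16 genes of endoplasmic reticulum stress, 2 were higher and 0 lower in set 2 than in set 1, and 2 were higher and 2 lower in set 3 than in set 1. These numbers were 1 and 2 in set 3 against set 2. *Atf4*, a transcription factor of the integrated stress response, was at 1.55, 2.67 and 2.54. *Dnajb9*, a J-domain partner of BiP, was at 0.879, 1.39 and 0.766, *Creld2*, which encodes a chaperone-like protein of the same compartment, at 0.451, 0.467 and 0.831, and *Pdia4*, a disulfide isomerase, at 1.31, 1.04 and 0.744. *Atf4* and *Creld2* were higher in set 3 than in set 1 and *Pdia4* and *Herpud1* lower, so the list gave no common direction. *Hspa5* itself, in set 3 over set 1, was at 1.97 in endothelium and 0.787 [0.758, 0.817] in theca cells.

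The dissociation-response list held 20 immediate early and stress genes other than chaperones. Its summed level was 128, 180 and 143 UMIs per 10000 over all cells and 92.8, 184 and 124 in GCs, highest in set 2. In GCs 13 of its genes were higher and 0 lower in set 2 than in set 1, against 9.25% and 34.4% of all genes, and 0 were higher and 8 lower in set 3 than in set 2, against 33.2% and 13.5%. *Nr4a1* was at 1.17, 4.46 and 0.797 over all cells, *Cebpb* at 3.53, 13.1 and 4.91, *Btg2* at 6.53, 17.7 and 5.56, and *Ier3* at 1.38, 4.37 and 3.06. Several of these genes are also known to answer to gonadotropins in ovarian cells, so in these libraries a response to dissociation and one to hormone cannot be told apart. The summed stress-inducible members in the same GCs were at 3.60, 4.25 and 4.48, a sum of members that moved apart. *Hspa1a* was at 0.864, 0.869 and 0.519 and *Hspa1b* at 0.860, 0.747 and 0.314. *Hsph1* was at 0.658, 0.900 and 1.84, *Dnajb1* at 1.02, 1.498 and 1.43 and *Hspb1* at 0.203, 0.232 and 0.376.

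Within a class and set, cells were divided at the median of the list after thinning, and the level of the stress-inducible members was compared between the cells above it and those below. The cells above it were higher by 2.43-fold, 1.66-fold and 1.79-fold in GCs, and by 2.71-fold, 2.35-fold and 1.59-fold in stroma. All cells of a set were also divided once, without regard to class. The ratios were then 2.86 [2.77, 2.97], 1.97 [1.91, 2.03] and 1.69 [1.65, 1.74]. Ratios over all cells, here and below, thus also take in differences between classes. The ratio of *Dnajb1* was 4.61, 2.18 and 2.85 in stroma and 4.72, 1.68 and 1.68 in theca cells, and that of *Hspa1a* was 3.44, 2.09 and 3.84 in GCs. *Hsph1* was at 1.17, 0.911 and 1.22 in GCs and 1.28, 1.21 and 1.17 in stroma, where *Hspb1* was at 1.14, 1.21 and 0.911. The summed cytosolic basal members had ratios of 1.26, 1.18 and 1.11 over all cells and from 0.930 to 1.62 over the classes and sets, the highest in 99 myeloid cells of set 2. *Hspd1* in theca cells was at 0.851, 0.947 and 0.811, and *Hspa5* in GCs at 0.848, 0.799 and 0.952. *Hspa5* lay above 1 in theca cells of sets 1 and 3, at 1.14 [1.07, 1.22] and 1.28 [1.12, 1.47], and in stroma of the same sets, at 1.22 and 1.13. *Hspb1* was at 1.65, 1.65 and 1.84 in GCs and 1.76, 1.85 and 1.51 in endothelium. The direction for *Hspa5* thus differed between classes.

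**Figure D4:**
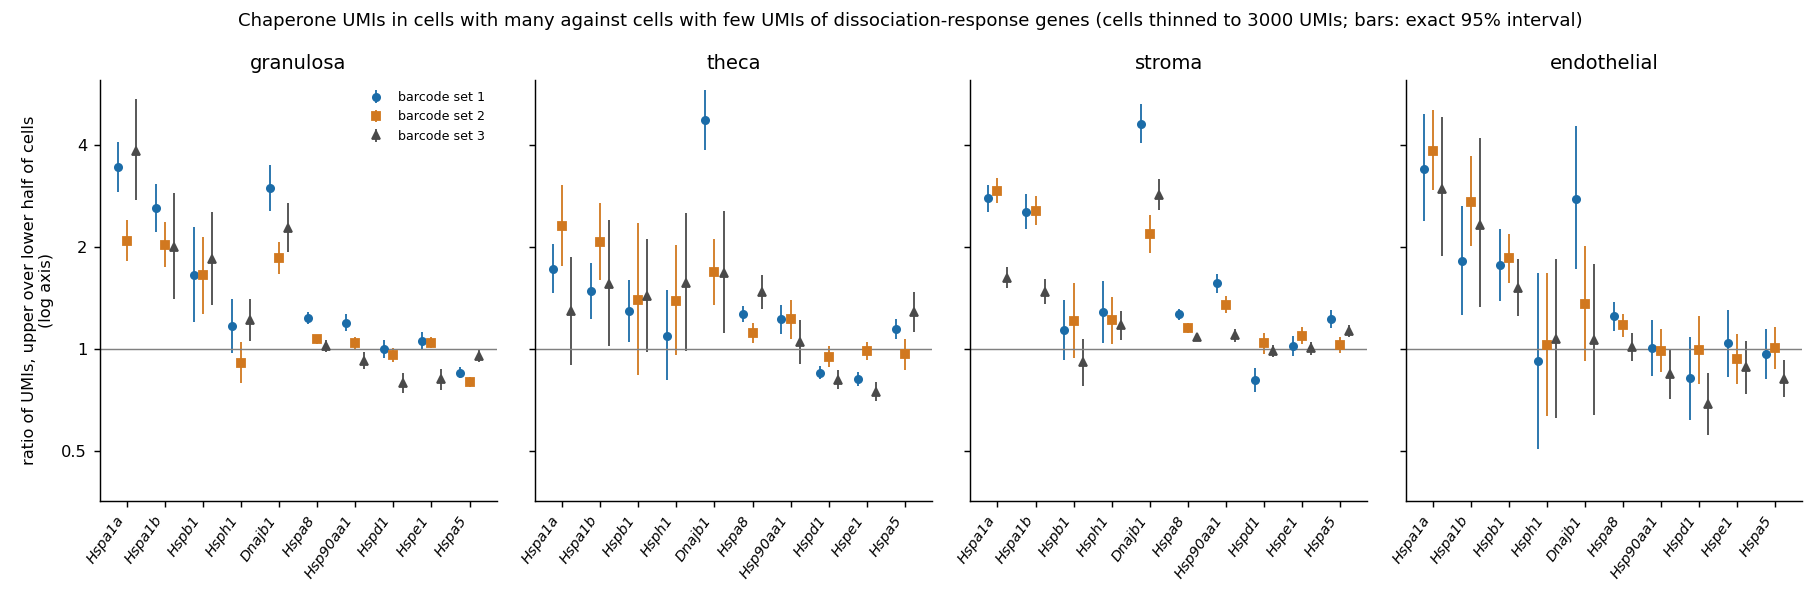
Ratio of the UMIs of each member in cells above over cells below the median of the dissociation-response genes, on a log axis, for GCs, theca cells, stroma and endothelium (panels) in 3 barcode sets, after thinning to 3000 UMIs, with exact 95% intervals as bars and a line at 1. *Hspa1a* lies above 1 in every panel and set, at 3.44, 2.09 and 3.84 in GCs, except that the interval includes 1 in theca cells of set 3 (1.29 [0.895, 1.87]), and *Hspd1* lies at or below 1 in theca cells.

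Over the 21 points of class and set the levels of the list and of the stress-inducible members had a Pearson r of 0.184 and a Spearman rho of 0.268, a description over points that share libraries. Within sets, over 7 classes each, r was 0.158, -0.17 and -0.024 and rho 0.179, -0.14 and -0.14 in sets 1, 2 and 3. The sum thus had no common direction over classes, and r is given for the sum only, not for its single members. In set 3 *Hspb1* gave 5.10 of the 10.7 of the sum in smooth muscle and 4.26 of the 7.16 in endothelium. The list was at 111 and 77.4 there. A separate split, without thinning, ranked the cells of each class and set by the share of the list in their UMIs. It kept the 15896 cells up to the median. In these cells alone, 3 members were higher in set 2 than in set 1 over all classes (*Hsph1*, *Dnajb1* and *Hsp90aa1*) in place of 0, against 7.68% of 6824 genes. In GCs the number was 4 of the 9 that passed the minimum level, with *Hspe1* added to these, in place of 2, against 9.24% of 6674 genes.

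The spread of the UMIs over cells was described by the variance of the thinned count over its mean, which is 1 under counting error alone and also depends on the level. Over all cells the variance was 3.11 times its mean for *Hspa1a*, 2.23 times for *Hspa1b*, 2.98 times for *Hspb1*, 1.21 times for *Hsph1*, 1.75 times for *Dnajb1* and 1.82 times for *Hspa8*. For *Hspd1* and *Hspe1* it was 3.21 and 3.10 times, and within theca cells 4.23 and 3.87 times. *Hsph1* had the lowest ratio of variance to mean, and 15.1%, 19.8% and 39.1% of GCs in sets 1, 2 and 3 held an *Hsph1* UMI after thinning (31.1%, 39.1% and 69.5% without).

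Across single cells of a class, on thinned log2 counts, Pearson's r between *Hspa1a* and *Hspa1b* was 0.27, 0.22 and 0.22 in GCs and 0.47, 0.45 and 0.43 in stroma. Between *Hspd1* and *Hspe1* it was 0.50, 0.63 and 0.70 in theca cells, and 0.09, 0.20 and 0.21 in GCs. These are descriptions over cells of 1 library each, and a higher level gives a higher r in sparse counts. Of these classes the chaperonin genes had the higher r in the one with the higher level.

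Dividing GCs were compared with the rest, because proliferation is a main state of these cells in growing follicles. After thinning, GCs with UMIs of at least 3 of 10 mitotic genes numbered 524, 458 and 382, and those with none 1670, 2338 and 808. *Hsp90aa1* was at 8.31, 11.9 and 13.7 in the mitotic cells and 4.69, 8.77 and 10.1 in the others, or 1.77-fold [1.66, 1.90], 1.36-fold [1.28, 1.43] and 1.36-fold [1.27, 1.45] higher. *Hspa8* was 1.12-fold, 1.26-fold and 1.11-fold higher. *Hspa1a* was lower in mitotic cells, at 0.433 [0.335, 0.554], 0.486 [0.372, 0.626] and 0.672 [0.461, 0.962] of the others, and *Hspb1* at 0.550, 0.366 and 0.669. *Hspa1b* was at 0.406 and 0.747 in sets 1 and 2 and at 0.999 [0.644, 1.52] in set 3. *Hspe1* was at 0.757 in set 2 and 1.16 in set 3, on either side of 1.

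**Figure D5:**
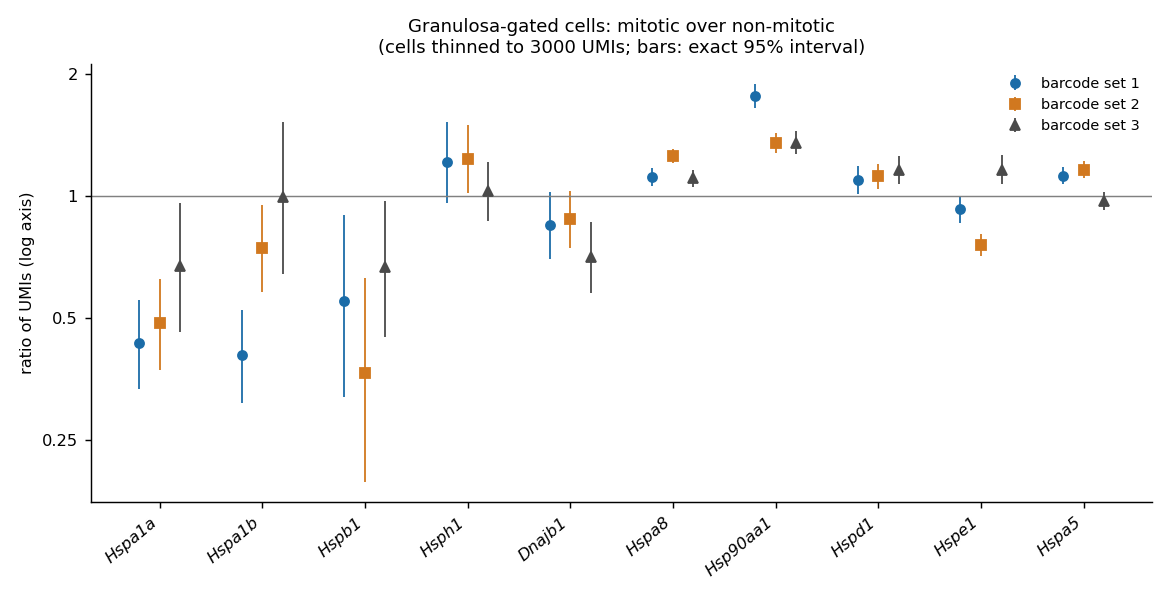
Ratio of the level of each member in GCs with UMIs of at least 3 mitotic genes over GCs with none, on a log axis, for the 3 barcode sets after thinning to 3000 UMIs, with exact 95% intervals as bars and a line at 1. *Hsp90aa1* lies above 1 in all sets, at 1.77, 1.36 and 1.36, and *Hspa1a* below 1, at 0.433, 0.486 and 0.672.

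The genes whose level over the 21 points of class and set went most closely with the members were sought among 3214 genes outside the members and lists. For the summed stress-inducible members the best were *Mmp14* (Pearson r 0.681), *Timp3* (0.675), *Myl12a* (0.674), *Nr2f6* (0.668) and *Cald1* (0.657). For *Hspd1* plus *Hspe1* they were *Sc5d* (0.932), *Me1* (0.926), *Cyp51* (0.921), *Aldh1a1* (0.904), which is itself a theca marker of the gate, and *Fdxr* (0.897). *Sc5d* and *Cyp51* encode enzymes of cholesterol synthesis, *Me1* a source of NADPH, and *Fdxr* the reductase that feeds electrons to mitochondrial P450 enzymes. *Mmp14* and *Timp3* encode a matrix protease and a protease inhibitor. The 3 theca points were the highest for the mitochondrial pair, but not for all of these genes. *Me1* was at 8.78, 7.61 and 10.6 in theca cells and 8.88, 7.78 and 10.7 in steroidogenic cells without *Cyp17a1*. *Fdxr* in sets 2 and 3 and *Sc5d* in set 2 were also higher in the latter class.

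The 10 cells gated as oocytes, over the 3 sets, are given as values only. Their *Hsp90aa1* level was 19.5 and their *Hsph1* level 3.15 [2.58, 3.81], from 105 UMIs, both above those of all 7 classes. *Hspa1a*, *Hspa1b* and *Hspb1* had 2, 3 and 2 UMIs in these cells, levels of 0.0600, 0.0900 and 0.0600, below those of every one of the 7 classes. *Hspa8* was at 9.45, *Hspd1* at 5.82, *Hspe1* at 6.06, *Hspa5* at 6.39 and *Dnajb1* at 0.600.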

How the data were processed

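Single-cell libraries of mouse ovary collected 0, 1 and 6 h after hCG, 1 per time point, were analysed. The authors deposited 1 table for the series, whose values are natural logs, ln(1 + x), where x is a gene's UMI count scaled to 10000 UMIs per cell. Cell Ranger and Seurat and the build mm10 are named in the submitters' processing notes. Their versions, the annotation and any filter on cells are not given in the sources used here. Every value was a whole number of UMIs within 0.01 after back-transformation, so UMI counts were recovered and summed per class and barcode set. The smallest cell had 500 UMIs. No count model was run, since there are no replicates and no map from cells to libraries.

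Each marker was divided by its 99th percentile (the 90th of the values above 0 where that is 0), and the mean over the markers of a class was its score. A cell was gated when the best score led by at least 0.1 and at least 3 markers were detected. This rule was set after the data had been seen. Cells within 0.05 of the limit were counted as close to it. Theca cells needed a *Cyp17a1* UMI. Ratios carry exact 95% intervals from the binomial split of 2 summed counts, and shares have exact Clopper-Pearson intervals. UMIs of 1 cell are not independent, so the intervals cover counting error only. A gene was called at 1.5-fold if its level reached 0.2 UMIs per 10000 in either group. Shares and spreads of cells used counts thinned to 3000 UMIs.

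The 10 members and the lists were chosen with earlier results of these data known. Named were all members, up to 4 genes of each companion list with the largest ratio between 2 sets at a level of at least 0.2, and the 5 genes of closest pattern with a level of at least 0.5, on log2(level + 0.1). *Herpud1* was added after its values were seen. *Cyr61* was matched to *Ccn1*. The interval method was tested on simulated Poisson counts only, which leave out the spread between cells. Sequences are from RefSeq (GRCm38.p6) and 31-base words and coordinates from GENCODE transcripts. The alternatives were other averages, thinning, leaving out 50 top genes, the deepest 5% of cells, the 1% of cells highest in the members or the cells above the median of dissociation-response genes, no minimum level, a gate margin of 0.2 and classes by the majority of Louvain clusters (2000 variable genes, 30 components, 15 neighbours, resolution 1). Python 3.11.15, numpy 2.4.6, scipy 1.17.1, pandas 2.3.3, python-igraph 0.11.9 and matplotlib 3.10.9 were used.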

Additional observations from a re-analysis of the deposited data

Results flagged for a closer look

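The direction of some members differed between cell classes under the same contrast of barcode sets, with counting intervals on opposite sides of 1. The difference itself was not tested, because each set is 1 library. *Hspa1a* in set 3 over set 1 was 1.98 in myeloid cells, 0.601 in GCs and 0.655 in endothelium. *Hspa1b* was 2.61 in myeloid cells, against 0.365 in GCs, 0.555 in theca cells and 0.649 in endothelium. *Dnajb1* was 1.87 in myeloid cells and 0.397 in theca cells. These myeloid ratios rest on 97 cells in set 1 and 150 in set 3.

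In set 3 over set 2, *Hsph1* was 2.04 in GCs, 1.67 in stroma, 4.23 in smooth muscle and 1.64 in myeloid cells, against 0.652 in theca cells. *Hspd1* was 1.89 in stroma, 2.03 in smooth muscle, 2.12 in endothelium and 1.55 in myeloid cells, against 0.651 in steroidogenic cells without *Cyp17a1*. *Hspa5* was 2.02 in endothelium and 0.632 in theca cells.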

How the results depend on the processing

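Over 7 alternatives, the 32 member ratios past 1.5-fold in the comparisons of sets and in GCs against other gated cells kept their direction, except that 1 of them turned under means of the deposited log values: *Hspd1* in GCs over other gated cells of set 1 was 1.04 in place of 0.470. Under the 2 gate alternatives the 29 such ratios compared kept theirs, and the minimum level changes no ratio. Of all 90 member ratios, small ones included, 75 kept their direction with log means, 81 with means over cells or thinning and 83 to 89 under the other 4 of these. The number of members higher in set 2 than in set 1 over all cells, 0 in the report, was 2 with means over cells, log means, thinning or the 5% deepest cells left out, 1 without the 50 top genes and 3 in cells below the median of dissociation-response genes. In GCs that number was 4 in those cells, 3 (with *Dnajb1*) without the 50 top genes or the 5% deepest cells and 1 with the wider margin, in place of 2. In set 3 against set 2 the number higher over all cells was 2 with log means in place of 1, and the number lower was 1 (*Hspa1b*) without the 50 top genes in place of 0. In GCs the number higher was 1 with log means, in those cells or with the wider margin in place of 2, and the number lower was 3 (with *Hspe1*) with means over cells or thinning and 1 with log means or cluster majority in place of 2. In set 3 against set 1 the number higher over all cells was 3 (with *Hspb1*) with means over cells, log means or thinning in place of 2. In GCs the number higher was 6 with means over cells, log means, thinning or in those cells and 5 without the 50 top genes or with the wider margin, in place of 4, and the number lower was 1 with means over cells or cluster majority in place of 2. For set 3 over set 1 the share of all genes higher over all cells was 13.3%, 15.9% and 13.5%, in place of 12.3%. These values are with means over cells, log means and thinning, in that order. In GCs the share was 11.5%, 14.2% and 11.8% in the same order, in place of 10.3%. It was 11.98% in cells below the median of dissociation-response genes, 10.98% without the 50 top genes and 9.77% with the wider margin. For set 2 over set 1 the share higher over all cells was 8.03%, 7.15% and 8.02% in the same order. Without the 50 top genes it was 7.83%, and 9.39% in GCs. For set 3 over set 2 the share higher with log means was 28.1% over all cells and 36.3% in GCs. The share lower in GCs was 14.7%, 14.5% and 14.8% in the same order, and without the 50 top genes it was 14.9% over all cells. The cause of the differences in these counts was not tested. Some class ratios were recomputed under 4 of the alternatives, an addition made after seeing the data. These were *Hspa1a* and *Hspa1b* in stroma, *Hspb1* in endothelium and in smooth muscle and pericytes, and *Hspd1* and *Hspe1* in theca cells. They stayed above 1 in each set. No paired analysis was possible because each time point has 1 library. Depth limits members at low levels: in classes of few cells, such as myeloid cells and smooth muscle, intervals span several-fold.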
